A study of Mus musculus with 24 samples.

Results

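Hox genes encode homeodomain transcription factors that tell cells where they lie along the body axis. In the mouse they stand in 4 clusters, HoxA, HoxB, HoxC and HoxD, and a member's number names its paralogue group, the set of genes at the same place in each cluster. Low numbers (anterior) act towards the head and high numbers (posterior) towards the tail. Polycomb complexes keep Hox genes silent outside their domains and write H3K27me3, trimethylation of histone H3 at lysine 27, over them. H3K4me3, trimethylation at lysine 4, marks active and poised gene starts. In the mammary gland several members are known from mouse mutants: Hoxa9, Hoxb9 and Hoxd9 are needed together for growth of the gland in pregnancy, and Hoxc8 placed elsewhere in the embryo starts mammary placodes.

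The 39 genes described here were taken from the 27080 Entrez genes counted in this series by the symbol alone (Hoxa, Hoxb, Hoxc or Hoxd and a number). HoxA on chromosome 6 held 11 of them, HoxB on chromosome 11 held 10, HoxC on chromosome 15 held 9 and HoxD on chromosome 2 held 9. Paralogue groups 1 to 4 are called anterior (12 genes), 5 to 8 central (11 genes) and 9 to 13 posterior (16 genes). The cells were basal cells, the outer layer of the mammary epithelium, taken without treatment from female mice on a C57BL/6 background and sorted by flow cytometry. Lgr5, an R-spondin receptor, and Tspan8, a tetraspanin, divided them into Lgr5+Tspan8hi, Lgr5+Tspan8-, Lgr5-Tspan8hi and Lgr5-Tspan8- cells, and the study set both marks side by side in these 4 subpopulations. Each mark had 8 libraries, 2 per subpopulation. The labels give neither the age of the mice nor how many were pooled, and do not say that replicates were separate animals, so p-values measure only how far these samples differ, a spread that may be technical.

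The H3K27me3 libraries held 2639862 to 6972189 counted reads each and the H3K4me3 libraries 1472251 to 4740371. The library of Lgr5-Tspan8hi replicate 1 stood apart in both marks, with 4191 genes at a count of 0 for H3K27me3 and 5844 for H3K4me3, where the other libraries had from 1121 to 1557 and from 662 to 3007. Effective depth is the number of independent reads that would leave as many genes at 0, as a percent of the counted reads. For H3K27me3 it was 31.0 to 63.5% in Tspan8hi and 70.7 to 77.5% in Tspan8- libraries. For H3K4me3 it was 17.2 to 47.4% and 55.2 to 98.8%. This difference between libraries runs along with Tspan8, and its part in the Hox values was not tested. H3K4me3 levels are depth-normalised read counts (CPM) in the region counted at the gene start, and H3K27me3 levels are CPM per kb of gene. Krt5 and Krt14, keratins of basal cells, carried 141 ± 25.9 and 131 ± 20.2 CPM of H3K4me3 (SD, n = 8), but Trp63, a basal transcription factor with several starts, only 1.78 ± 0.84 CPM. The luminal keratins Krt8, Krt18 and Krt19 carried 108 ± 10.4, 67.8 ± 9.85 and 28.1 ± 5.88 CPM. The 10 luminal markers ran from 1.80 CPM (Elf5) to 256.5 CPM (Gata3). Fibroblast markers had means from 4.92 CPM (Lum) to 62.7 CPM (Prrx1) and endothelial markers from 2.59 CPM (Tie1) to 35.85 CPM (Kdr). Of the 6 immune markers, 5 had means under 4 CPM.

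Across the libraries the Hox genes were among the most H3K27me3-rich genes of these cells. Here and below, medians, deciles and percentiles of all genes are over those that passed the count filter and were tested. These were 22099 genes for H3K27me3 and 19009 for H3K4me3. The filter left out genes with few reads, so H3K4me3 percentiles among all genes counted would be higher. Of the 39, 36 lay in the top decile of all genes by H3K27me3 per kb, above 2.97 CPM per kb, while the median of all genes was 0.70. The median Hox gene had 10.4 ± 2.14 CPM per kb (SD over 8 libraries) and stood at the 98.9th percentile. Against the genes tested, H3K4me3 was low at most Hox genes. The median Hox gene had 12.3 ± 1.87 CPM against 49.2 CPM for the median of the genes tested, and 37 of 39 lay below that median. The exceptions were neighbours inside HoxB.

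**Figure D1:**
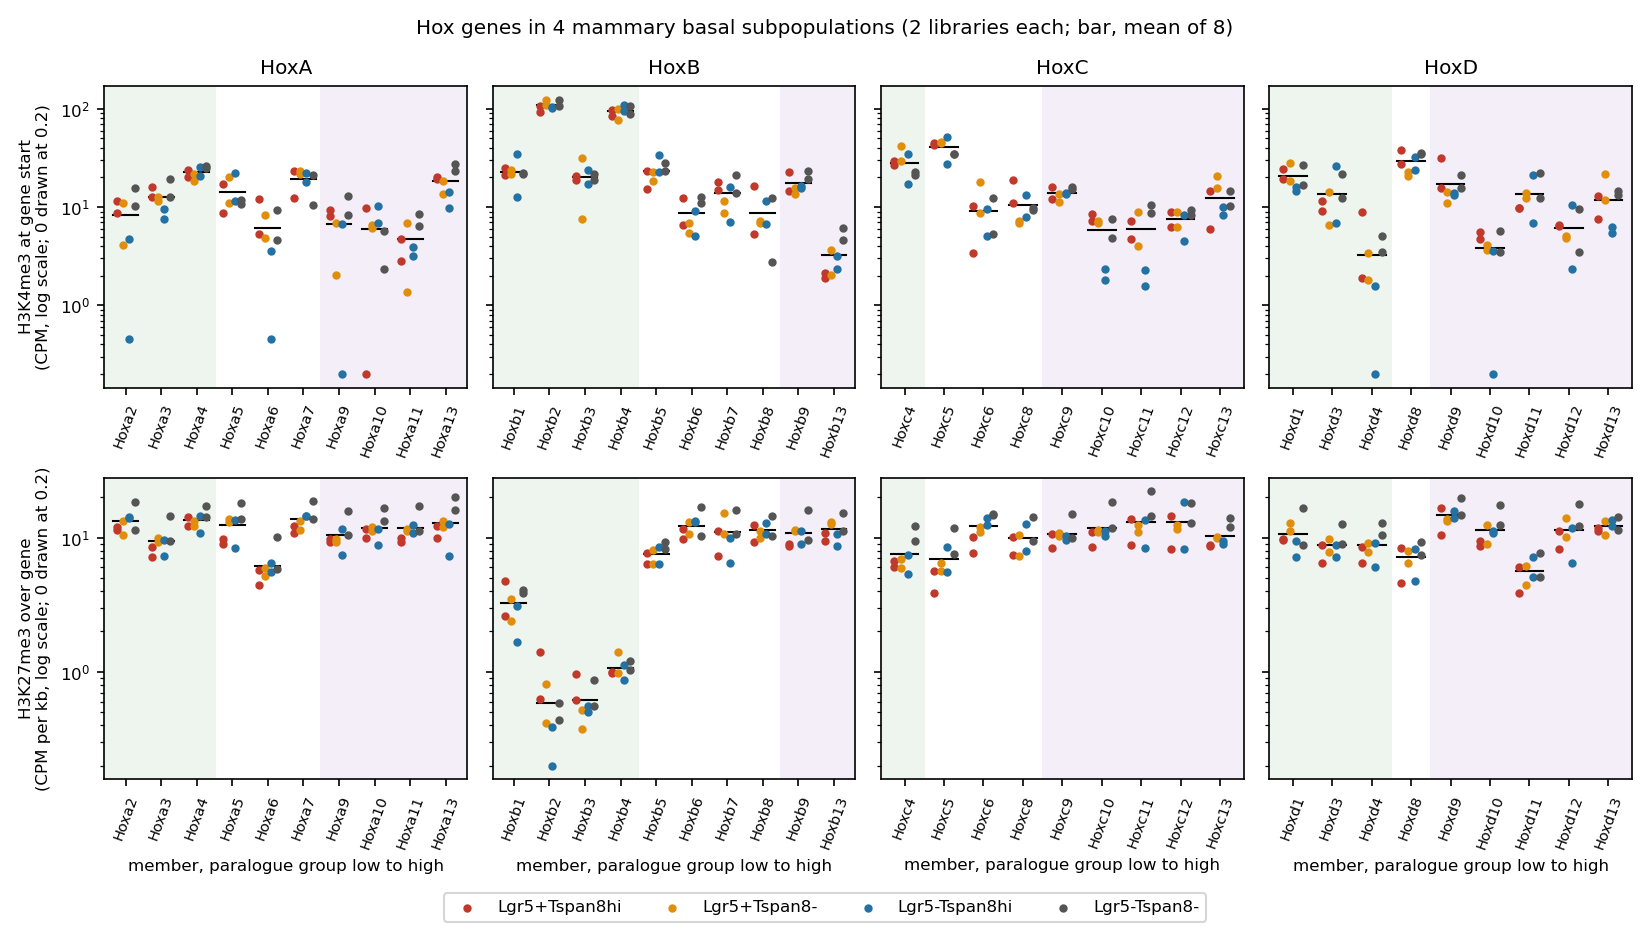
H3K4me3 at the gene start (top, CPM) and H3K27me3 over the gene (bottom, CPM per kb), both on log axes, for 38 members of the 4 clusters from low to high paralogue group. Points are the 8 libraries coloured by subpopulation, bars their mean, a value of 0 is drawn at 0.2, green shading marks anterior and violet posterior members. Hoxb2 and Hoxb4 stand near 100 CPM of H3K4me3, and Hoxb2, Hoxb3 and Hoxb4 near or under 1 CPM per kb of H3K27me3, below every other member drawn.

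Hoxb2, which patterns the hindbrain, and Hoxb4, which expands blood stem cells when overexpressed, had the highest H3K4me3 of all 39. Hoxb2 (chr11:96351632-96354016, plus strand) had 92.9, 106, 124, 110.3, 104, 102, 106 and 123 CPM in the 2 Lgr5+Tspan8hi, 2 Lgr5+Tspan8-, 2 Lgr5-Tspan8hi and 2 Lgr5-Tspan8- libraries, and Hoxb4 (chr11:96318267-96321638, plus strand) had 96.4, 84.8, 76.6, 99.99, 109, 95.8, 88.1 and 107 CPM in the same order. Every one of these values lay above every value of the other 37 members, whose highest mean was 40.8 CPM at Hoxc5. With means of 109 ± 10.4 and 94.7 ± 11.1 CPM they stood at the 90.8th and 85.3rd percentiles of all genes.

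The same stretch had little H3K27me3. Hoxb2 carried 1.40, 0.63, 0.42, 0.81, 0, 0.39, 0.58 and 0.44 CPM per kb in the order above, from 0 to 20 reads per library, and Hoxb4 carried 0.99, 1.00, 1.41, 0.98, 1.12, 0.87, 1.03 and 1.20 CPM per kb. Hoxb3, which lies between them and acts in the hindbrain, carried 0.96, 0.62, 0.52, 0.38, 0.50, 0.55, 0.88 and 0.56 CPM per kb. Mean levels of 0.58, 1.07 and 0.62 CPM per kb put these 3 genes at the 45.8th, 61.4th and 47.3rd percentiles of all genes, where every other member was above the 91st. The H3K4me3 level of Hoxb3 itself was 20.01 ± 6.76 CPM, within the range of the other members. In the regions counted, low H3K27me3 and high H3K4me3 therefore did not go together at all 3. Hoxb3 spans 24805 bp by curated and 40830 bp with predicted transcripts. The region counted for it is not known, so H3K4me3 at another start of the gene would not be seen.

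On both sides the H3K27me3 level was higher. Hoxb5, whose end lies 12146 bp from the start of Hoxb4, had 7.58 ± 1.13 CPM per kb, and Hoxb1, the anterior end of the cluster, had 3.23 ± 1.00. Beyond the ends, the kinase adaptor gene Skap1 next to Hoxb1 had 5.77 ± 1.02 CPM per kb and the tubulin ligase-like gene Ttll6 on the Hoxb13 side had 5.27 ± 1.37. The central and posterior HoxB members from Hoxb6 to Hoxb13 lay between 10.8 and 12.3 CPM per kb.

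The promoters of Hoxb4, Hoxc4 and Hoxd4 in paralogue group 4 stand at one place in the body plan, and are printed because the data for both marks bear on them. Each runs from 250 bases before the start to 50 after it, from RefSeq on GRCm38.p6, plus strand, with CG dinucleotides in capitals. They lie at chr11:96318017-96318316 (Hoxb4), chr15:103034145-103034444 (Hoxc4) and chr2:74721728-74722027 (Hoxd4).
Hoxb4: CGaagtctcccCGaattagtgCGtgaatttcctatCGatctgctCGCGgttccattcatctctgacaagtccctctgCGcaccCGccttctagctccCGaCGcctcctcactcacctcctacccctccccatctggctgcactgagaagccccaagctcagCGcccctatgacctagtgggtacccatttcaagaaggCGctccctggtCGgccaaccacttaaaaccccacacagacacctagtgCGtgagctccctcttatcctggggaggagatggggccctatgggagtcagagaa
Hoxc4: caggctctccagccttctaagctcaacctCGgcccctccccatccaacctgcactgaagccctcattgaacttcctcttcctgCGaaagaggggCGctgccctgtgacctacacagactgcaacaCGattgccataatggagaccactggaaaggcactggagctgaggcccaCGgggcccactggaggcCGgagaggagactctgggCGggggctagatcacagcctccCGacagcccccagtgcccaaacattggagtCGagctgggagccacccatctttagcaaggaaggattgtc
Hoxd4: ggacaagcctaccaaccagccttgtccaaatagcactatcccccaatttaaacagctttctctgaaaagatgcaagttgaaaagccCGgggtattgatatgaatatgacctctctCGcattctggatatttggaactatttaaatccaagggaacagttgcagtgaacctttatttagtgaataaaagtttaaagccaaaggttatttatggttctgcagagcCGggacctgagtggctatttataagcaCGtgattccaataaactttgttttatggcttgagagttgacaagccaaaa
The Hoxb4 promoter holds 14 CG, the Hoxc4 promoter 9 and the Hoxd4 promoter 4. The H3K4me3 levels of these genes followed the same order, 94.7, 27.9 and 3.28 CPM, while H3K27me3 stood at 1.07, 7.53 and 8.82 CPM per kb. Hoxa4, the group's other member, had 22.7 CPM of H3K4me3 and 13.6 CPM per kb of H3K27me3. The order does not hold over the family. Promoters of 22 of the 39 genes could be matched (24 promoters), with a median of 14.5 CG against 7 in all 32851 promoters, and Spearman's rho between CG count and H3K4me3 across those genes was -0.02. Hoxa13, with 45 CG in 300 bases, had only 18.3 CPM of H3K4me3. The sequence TGATNNAT, a core bound by Hox and Pbx proteins together, was found on either strand in 4 of the 24 Hox promoters (16.7%) and in 8.85% of all promoters.

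The clusters also hold microRNA genes. Of these, Mir10a in HoxB had more H3K4me3 than Mir10b in HoxD, but Mir196a-1, also in HoxB, had less than Mir10b. Mir10a lies 1102 bp upstream of Hoxb4 and Mir10b in HoxD within the Hoxd3 and Hoxd4 genes. Their mature products are printed with the seed (bases 2 to 8, which pairs with targets) in capitals, as are the products of the Mir196 genes, which lie beside the group 9 gene in HoxA, HoxB and HoxC.
mmu-miR-10a-5p: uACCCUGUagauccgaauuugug
mmu-miR-10b-5p: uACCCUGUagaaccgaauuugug
mmu-miR-196a-5p: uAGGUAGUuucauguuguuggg
mmu-miR-196b-5p: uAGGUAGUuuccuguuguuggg
The miR-10 products share a seed and differ only by U12A (miR-10a-5p first, counted from the 5′ end), and the miR-196 products share another and differ by A12C (miR-196a-5p first). Mir10a had 74.9 ± 10.2 CPM of H3K4me3 (55.8 to 89.3 over 8 libraries) and Mir10b 8.02 ± 2.52 CPM (4.01 to 11.2). Mir196a-1 in HoxB, Mir196a-2 in HoxC and Mir196b in HoxA averaged 3.41, 3.06 and 6.75 CPM. Because Mir10a starts within 2 kb of Hoxb4, part of its count can be the reads of Hoxb4. Mir615 (40.6 ± 7.90 CPM) lies within Hoxc5 (40.8 ± 7.97 CPM), and their counts were nearly equal in every library. For both genes the counts ran from 59 to 163 reads, so they are not separate measurements.

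Each of the 4 clusters had a median H3K27me3 level far above that of all genes. The cluster medians were 11.5 ± 2.60 CPM per kb for HoxA, 8.56 ± 1.54 for HoxB, 10.8 ± 1.95 for HoxC and 9.70 ± 2.12 for HoxD (SD over 8 libraries). HoxA, the highest, exceeded HoxB, the lowest, by 0.41 ± 0.12 on the log2 scale, and did so in 8 of 8 libraries. Both were picked by their rank in these same libraries, so the shared sign is partly built in. Anterior members had medians of 11.1 ± 2.25 CPM per kb in HoxA and 0.90 ± 0.14 in HoxB. Central and posterior medians were 12.1 ± 3.17 and 11.6 ± 2.56 in HoxA and 10.8 ± 2.18 and 11.1 ± 2.14 in HoxB. The HoxA minus HoxB difference was 0.62 without division by gene length, and 1.15 per kb of the whole gene span with predicted transcripts, an alternative chosen after seeing the data. In HoxA the highest member was Hoxa7, with 13.7 ± 2.53 CPM per kb, and the lowest was Hoxa6, with 6.16 ± 1.68. In HoxB, Hoxb6 was highest with 12.3 ± 2.26. HoxC ranged from Hoxc5, with 6.90 ± 2.45, to Hoxc12, with 13.1 ± 3.92 CPM per kb, and HoxD from Hoxd11, with 5.69 ± 1.29, to Hoxd9, with 14.8 ± 2.72, the highest of all members. Hoxd11 spans 4694 bp by its curated transcripts, which set the length used here, and 7459 bp with predicted ones. Curated and predicted spans lay further apart at Hoxb6 (2496 and 8756 bp), Hoxd10 (3216 and 10834 bp), Hoxc6 (2320 and 13657 bp) and Hoxc4 (2458 and 18760 bp). The levels and order of these members, and the count in the top decile, rest on the curated spans. Neighbours in this order, such as Hoxa7 and Hoxa4 (13.6 ± 1.89) or Hoxc12 and Hoxc11 (13.1 ± 4.30), differed by less than their SD.

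For H3K4me3 the cluster medians were 10.9 ± 1.5 CPM in HoxA, 17.9 ± 2.52 in HoxB, 10.3 ± 1.87 in HoxC and 11.6 ± 2.57 in HoxD. HoxB exceeded HoxC by 0.80 ± 0.37 on the log2 scale and was above it in 7 of 8 libraries. These clusters were likewise picked as the highest and lowest in the same libraries. The highest members were Hoxa4 with 22.7 ± 2.88 CPM, Hoxb2, Hoxc5 and Hoxd8 with 29.49 ± 6.61. The lowest were Hoxa11 with 4.73 ± 2.37, Hoxb13 with 3.26 ± 1.5, Hoxc10 with 5.81 ± 2.51 and Hoxd4 with 3.28 ± 2.77. Hoxb13, known from the prostate and the tail end of the spine, lies 74720 bp from Hoxb9, its nearest neighbour in the cluster. At these levels few reads were counted, from 3 to 29 per library for Hoxb13 and from 0 to 24 for Hoxd4.

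From anterior to posterior members, H3K4me3 was lower and H3K27me3 higher. Median H3K4me3 was 19.9 ± 3.14 CPM over the anterior, 12.2 ± 2.73 over the central and 8.39 ± 1.61 over the posterior members (SD over 8 libraries). The posterior median was below the anterior one in 8 of 8 libraries, by a mean of -1.25 ± 0.22 on the log2 scale. Median H3K27me3 was 8.67 ± 2.06, 10.2 ± 2.07 and 11.5 ± 2.46 CPM per kb in the same order, and the posterior median was above the anterior one in 8 of 8 libraries, by 0.42 ± 0.10 on the log2 scale. The H3K27me3 difference was 0.67 without division by gene length, 0.65 per kb of whole gene span and 0.63 without the 9 members that overlap another gene or share its start. The 8 libraries measure the same 39 genes, so they show the spread of the measurement and not of the choice of genes.

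Both differences were smaller without HoxB and kept their sign. Without the HoxB cluster, an alternative chosen after seeing the data, the posterior minus anterior difference was -0.89 ± 0.18 for H3K4me3 and 0.29 ± 0.08 for H3K27me3, again with 1 sign in 8 of 8 libraries. Spearman's rho between paralogue number and H3K4me3 was -0.53 across the 39 genes, -0.45 within HoxA (n = 11), -0.78 within HoxB (n = 10), -0.57 within HoxC (n = 9) and -0.40 within HoxD (n = 9). For H3K27me3 it was 0.42 across all, 0.12 in HoxA, 0.77 in HoxB, 0.62 in HoxC and 0.33 in HoxD. Genes are not independent replicates, and all of them come from the same libraries. Members that run against the order include Hoxd4, anterior and among the lowest in H3K4me3, and Hoxa13 and Hoxb9, posterior with 18.3 ± 5.62 and 17.7 ± 3.68 CPM.

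Members of the same paralogue group share ancestry and much of their function, and were compared across clusters. In group 1, which patterns the hindbrain, Hoxb1 and Hoxd1 differed by less than their SD in H3K4me3, with 22.8 ± 6.00 and 20.5 ± 5.12 CPM. Their H3K27me3 levels were 3.23 ± 1.00 and 10.7 ± 2.95 CPM per kb, and the highest library of Hoxb1 (4.71) was below the lowest of Hoxd1 (7.14). In group 13, which shapes the limb tips, the tail and the urogenital tract, Hoxb13, Hoxa13, Hoxc13 and Hoxd13 overlapped in H3K27me3, at 11.5 ± 2.13, 12.9 ± 3.86, 10.2 ± 1.89 and 12.3 ± 1.30 CPM per kb, and the libraries of Hoxb13 in H3K4me3 (highest 6.12 CPM) lay below those of Hoxa13 (lowest 9.85 CPM) but overlapped those of Hoxc13 (lowest 6.00 CPM) and Hoxd13 (lowest 5.47 CPM). Group 9 had 4 members in the same range of H3K27me3, with Hoxc9 at 10.6 ± 1.88 CPM per kb.

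**Figure D2:**
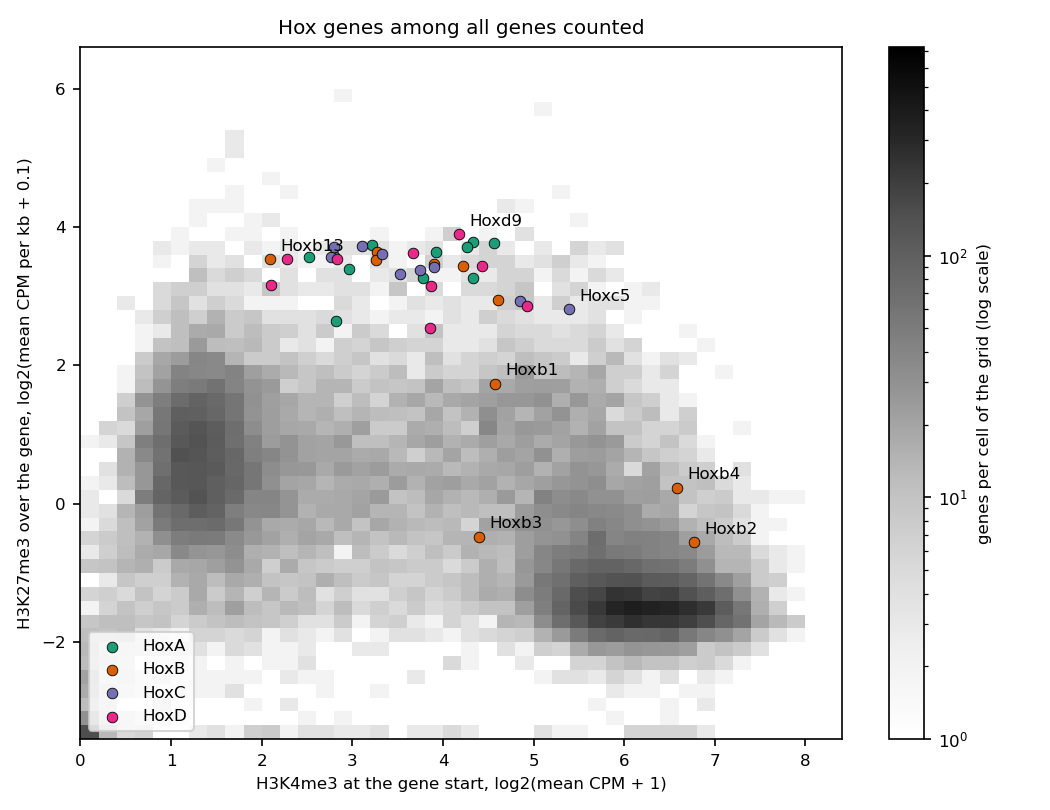
Mean H3K4me3 at the gene start, as log2(CPM + 1), against mean H3K27me3 over the gene, as log2(CPM per kb + 0.1), over 8 libraries each. Grey cells count all genes and coloured points are the 39 Hox genes by cluster. Most members form a group high in H3K27me3 and spread over low H3K4me3, while Hoxb2 and Hoxb4 lie near the dense body of genes with high H3K4me3 and little H3K27me3.

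How the marks related to each other differed from cluster to cluster. Spearman's rho between H3K4me3 and H3K27me3 levels was -0.88 in HoxB (n = 10) and -0.82 in HoxC (n = 9), but -0.22 in HoxD (n = 9) and 0.45 in HoxA (n = 11). In HoxC the members with most H3K4me3, Hoxc5 and Hoxc4 (27.9 ± 7.84 CPM), were those with least H3K27me3 (6.90 and 7.53 CPM per kb). In HoxA, Hoxa4 and Hoxa7 were among the higher members in both marks. They had 22.7 and 19.1 CPM of H3K4me3 and 13.6 and 13.7 CPM per kb of H3K27me3. Among the genes tested their H3K4me3 stood only at the 28.8th and 26.3rd percentiles. No member stood in the top decile for H3K27me3 per kb and also above the median H3K4me3 of the genes tested. Of the 15739 genes tested for both marks, 168 did. That share is small, so the absence among the members is not read as a trait of Hox genes. Over all genes counted the H3K4me3 median would be lower, and whether members lay above it was not tested. Where genes overlap, their reads cannot be separated: Hoxa3 spans Hoxa4, Hoxa5 and Hoxa6, and Hoxd3 spans Hoxd4 and Mir10b.

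Several members have a known part in the mammary gland or in breast tumours. Hoxa5, needed for normal mammary ducts, had 12.4 ± 3.19 CPM per kb of H3K27me3 and 14.2 ± 5.06 CPM of H3K4me3. The group 9 genes Hoxa9, Hoxb9 and Hoxd9 had 10.4 ± 2.44, 10.8 ± 2.43 and 14.8 ± 2.72 CPM per kb of H3K27me3. Their H3K4me3 levels were 6.79 ± 4.07, 17.7 ± 3.68 and 17.0 ± 6.59 CPM. Hoxb6, Hoxb7, Hoxc6, Hoxc8 and Hoxd10 lay between 9.92 and 12.3 CPM per kb of H3K27me3 and between 3.86 and 13.9 CPM of H3K4me3.

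Hoxd9 had 10.4, 16.7, 13.8, 13.3, 15.7, 13.96, 14.7 and 19.7 CPM per kb of H3K27me3 in the 2 Lgr5+Tspan8hi, 2 Lgr5+Tspan8-, 2 Lgr5-Tspan8hi and 2 Lgr5-Tspan8- libraries. Hoxd10, which acts with Hoxd9 in the hindlimb nerves, had 9.51, 8.71, 8.89, 12.4, 10.9, 11.3, 12.4 and 17.6 CPM per kb in that order. Both had their highest value in Lgr5-Tspan8- replicate 2. Hoxb6 had 9.73, 11.6, 12.97, 10.7, 13.1, 13.2, 10.3 and 16.8 CPM per kb and Hoxc8 had 7.38, 10.1, 7.32, 10.4, 12.6, 7.98, 9.52 and 14.2 CPM per kb. These 4 were highest in the same library, as were 33 of the 39 members. How many of all genes were highest there was not counted, so the number is not read as a trait of Hox genes.

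Between the subpopulations, no Hox gene passed an adjusted p of 0.05 for H3K27me3 between the Tspan8hi and the Tspan8- libraries (edgeR quasi-likelihood F test, Benjamini-Hochberg over 22099 genes; 0.335% of all genes passed). By the unadjusted p of 0.05, 16 of 39 were lower in Tspan8hi, where 12.9% of all genes lay under it in either direction. Limma-voom also called 0, and DESeq2 called Hoxa3 and Hoxc13 as lower (1.74% of all genes were) and gave 20 members no adjusted p. The log2 fold change was below 0 at 38 of the 39 members, against 47.3% of all genes, with a median of -0.26 for the Hox genes and 0.02 for all genes. In bulk chromatin, a mark on fewer cells and less of it per cell cannot be told apart. Effective depth was also lower in every Tspan8hi than in any Tspan8- library, and its part was not tested. The clusters had medians of -0.28 (HoxA), -0.15 (HoxB), -0.35 (HoxC) and -0.32 (HoxD), and the anterior, central and posterior members of -0.28, -0.23 and -0.33. Hoxb3 alone was above 0, at 0.20 ± 0.22 (SE).

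The member with the lowest p was Hoxa3, which is needed for the thymus and parathyroid. It had 7.16, 8.49, 7.36 and 9.61 CPM per kb in the Tspan8hi libraries, against 9.21, 9.95, 9.503 and 14.5 in the Tspan8- libraries. The sides overlapped, and 1 library, Lgr5-Tspan8- replicate 2, was well above the other 7. Its log2 fold change was -0.39 ± 0.11 (SE; edgeR adjusted p = 0.108). Hoxb7, overexpressed in some breast tumours, had 7.33, 11.2, 6.43 and 9.88 CPM per kb in Tspan8hi and 10.7, 15.3, 10.7 and 16.1 in Tspan8- libraries (-0.59 ± 0.18, edgeR adjusted p = 0.138). Its sides overlapped only through the value of Lgr5+Tspan8hi replicate 2. Hoxa5 had 9.80, 8.96, 8.38 and 13.5 CPM per kb in Tspan8hi and 13.03, 13.7, 13.9 and 17.96 in Tspan8- libraries (-0.51 ± 0.16, edgeR adjusted p = 0.151). Here Lgr5-Tspan8hi replicate 2 reached into the Tspan8- range. Hoxc13, required for hair and nails, had 8.61, 8.75, 9.51 and 8.95 CPM per kb in Tspan8hi, all below the 9.98, 10.1, 11.9 and 14.1 in Tspan8- libraries (-0.36 ± 0.11, edgeR adjusted p = 0.153). Hoxb13 had 9.93 ± 1.04 CPM per kb in Tspan8hi and 13.1 ± 1.71 in Tspan8- libraries (SD, n = 4 each), also without overlap. These were the only 2 of 39 members lower in Tspan8hi in this way, as 3.54% of all genes were.

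**Figure D3:**
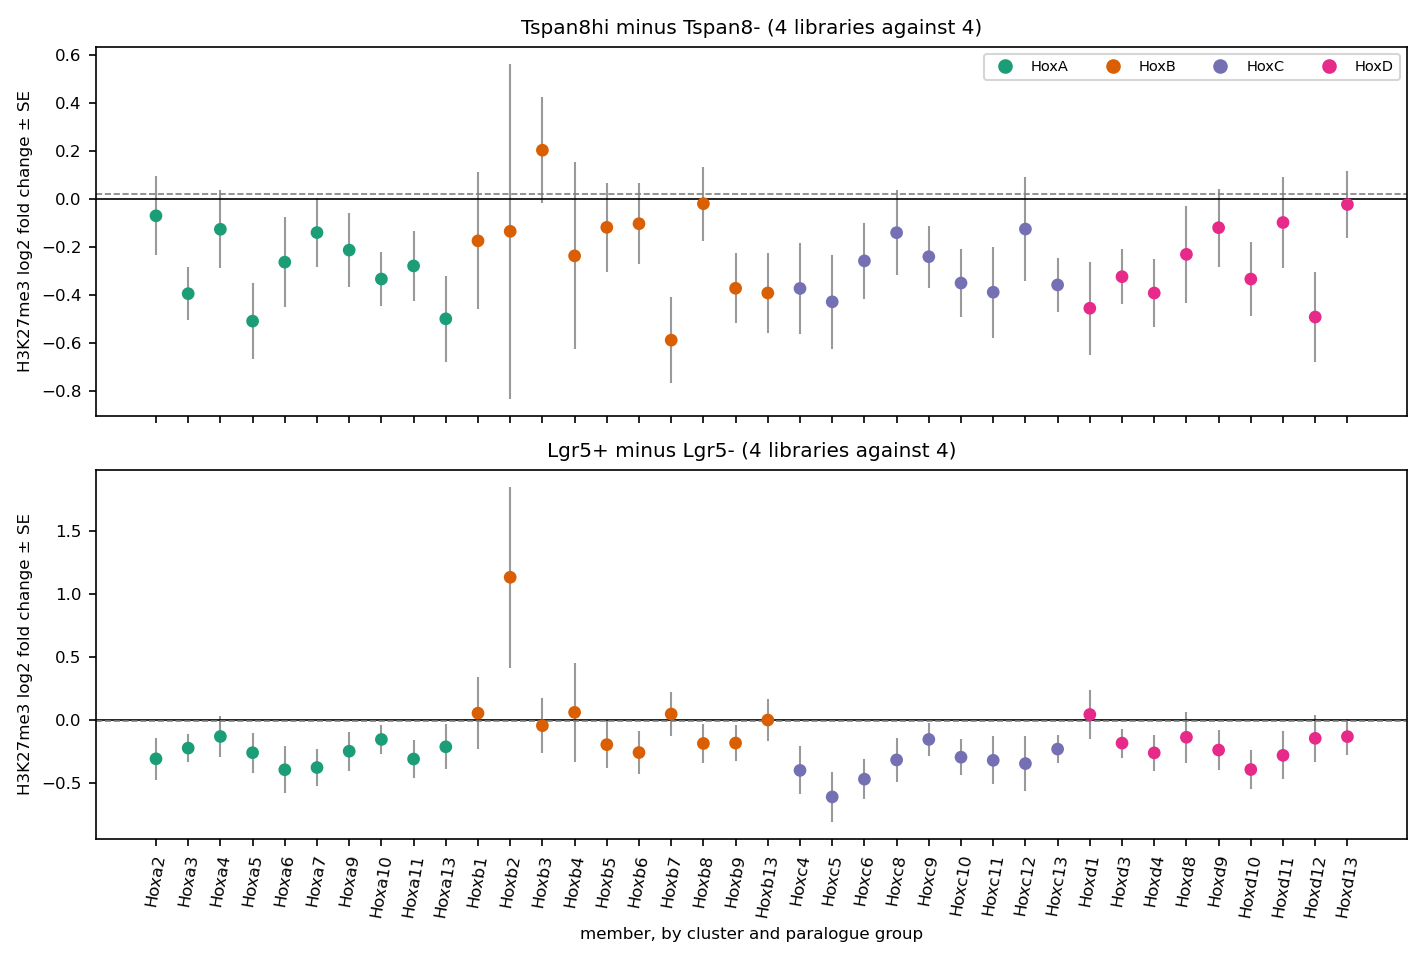
H3K27me3 log2 fold change with its standard error for 38 Hox genes, coloured by cluster, for Tspan8hi minus Tspan8- libraries (top) and Lgr5+ minus Lgr5- libraries (bottom), 4 against 4. The dashed line is the median of all genes. In the top panel 37 of 38 points lie below 0 and in the bottom panel 33, and none passed the adjusted threshold.

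Genes rich in H3K27me3 shared this direction whether or not they were Hox genes. When all genes were split into deciles by H3K27me3 per kb, the top decile (2095 genes, 36 of them Hox genes) had a median log2 fold change of -0.23 with 81.4% below 0, whereas deciles 3 to 6 had medians from 0.09 to 0.16. With each library scaled against reads per kb of gene, so that dense and sparse genes were centred alike, the Hox median was -0.07 for Tspan8, with 25 of 39 below 0.

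The libraries did not share the difference evenly. In Lgr5-Tspan8- replicate 2 the median Hox gene was 0.53 above its own mean over the 8 libraries on the log2 scale. The median of all genes there was -0.001. Of the Hox members 37 of 39 were above their own mean, and the Hox genes took 0.283% of the H3K27me3 reads. In Lgr5+Tspan8hi replicate 1 the Hox median was -0.31, with 2 of 39 above, and 0.162% of reads. The other Lgr5-Tspan8- library stood at 0.04, and the other 5 libraries lay between -0.24 and 0.03. Without Lgr5-Tspan8- replicate 2 the Hox median with Tspan8 was -0.18, with 31 of 39 below 0, and without the other library of that subpopulation, which leaves replicate 2 to stand for it, the median was -0.44 and 13 members passed as lower in Tspan8hi, as 4.41% of all genes did. Without Lgr5-Tspan8hi replicate 2 the median was -0.37 and 6 members passed as lower (1.85% of all genes), and without any of the other 5 libraries none did.

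**Figure D4:**
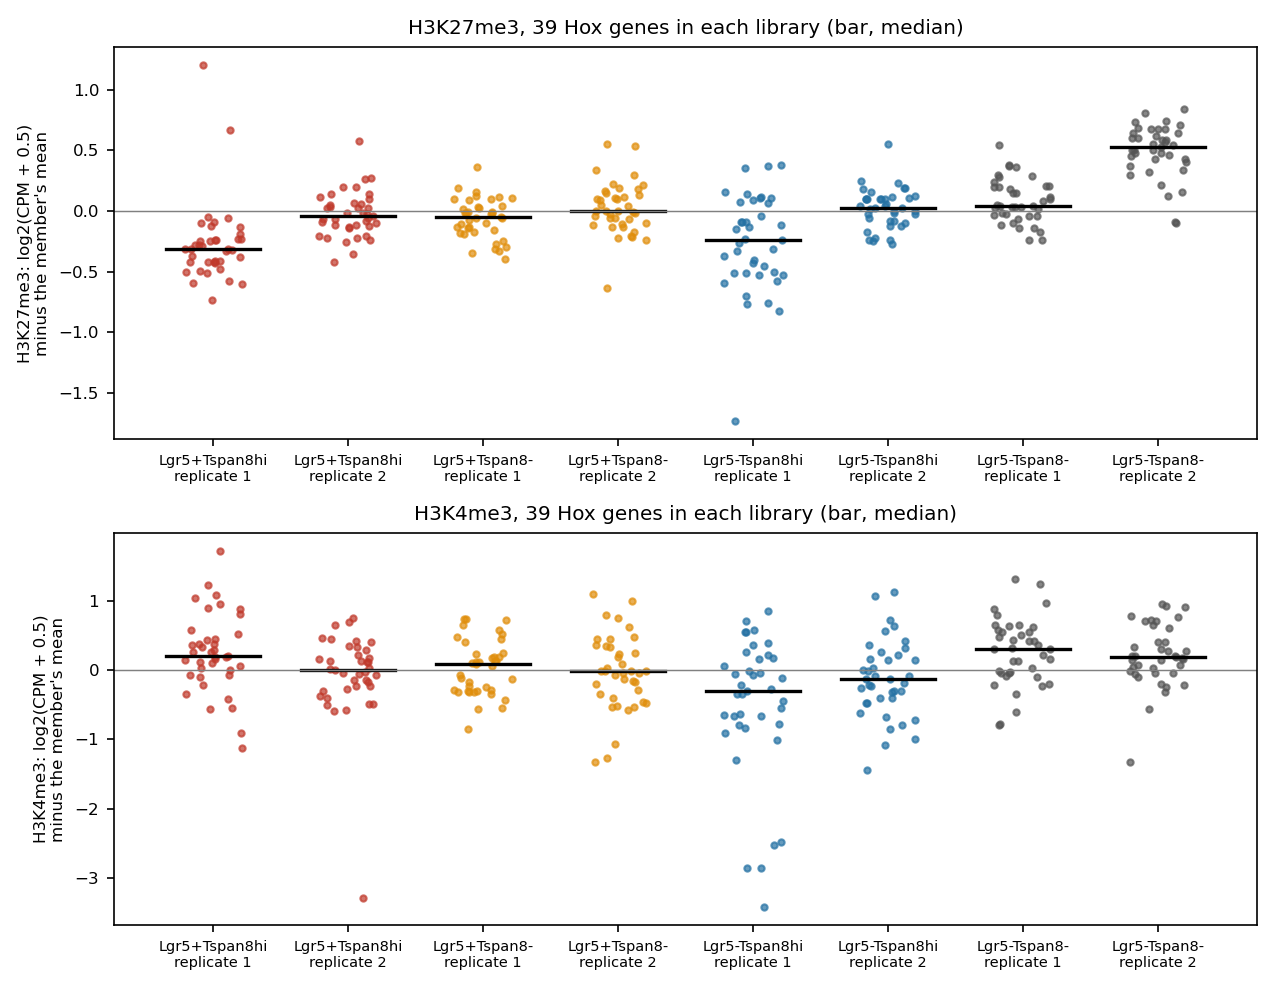
Deviation of each of the 39 Hox genes from its own mean over 8 libraries, as log2(CPM + 0.5), in each H3K27me3 library (top) and each H3K4me3 library (bottom), with the median as a bar. In the top panel Lgr5-Tspan8- replicate 2 stands at 0.53 and its partner replicate at 0.04. The H3K4me3 medians of Lgr5-Tspan8hi replicate 1 and Lgr5-Tspan8- replicate 1 are -0.30 and 0.31.

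Between Lgr5+ and Lgr5- libraries no Hox gene passed for H3K27me3 either, where 0.0407% of all genes did, and 8 of 39 had an unadjusted p under 0.05 (7.19% of all genes), DESeq2 and limma-voom calling 0 as well. The log2 fold change was below 0 at 34 of 39 members, against 51% of all genes, with a median of -0.22 (all genes, -0.01). HoxC had the lowest cluster median, -0.32, and HoxB the highest, -0.02. Hoxc5 had 3.89, 5.67, 6.50 and 5.61 CPM per kb in the Lgr5+ libraries and 8.59, 5.55, 7.57 and 11.8 in the Lgr5- libraries (log2 fold change -0.61 ± 0.20, edgeR adjusted p = 0.421). Its sides overlapped. Hoxc6, which takes part in mammary development, had 7.74, 10.1, 12.1 and 10.9 CPM per kb in Lgr5+ libraries, all below the 12.5, 13.99, 14.7 and 14.9 in Lgr5- libraries (-0.47 ± 0.16, edgeR adjusted p = 0.467). Hoxa7 also did not overlap (-0.38 ± 0.14, edgeR adjusted p = 0.568), and it and Hoxc6 were the only 2 of 39, where 1.51% of all genes were lower in this way. Hoxd10 followed with -0.39 ± 0.16 (edgeR adjusted p = 0.593). The top decile of all genes by H3K27me3 per kb had a median of -0.15 with 78.6% below 0, and scaling against reads per kb of gene put the Hox median at -0.02. Without Lgr5-Tspan8- replicate 2 it was -0.09, and without Lgr5-Tspan8hi replicate 2 it was -0.10, while Hoxa3 passed without Lgr5-Tspan8- replicate 1 (0.7% of all genes). Hoxb2 stood out upwards, at 1.13 ± 0.72 (edgeR adjusted p = 0.805), on counts of 0 to 20 reads.

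The interaction asks whether the Tspan8 difference was the same in Lgr5+ and Lgr5- cells. No Hox gene passed for H3K27me3 (0.00905% of all genes; 1 Hox gene with an unadjusted p under 0.05, against 5.5%, and 0 by DESeq2 and limma-voom). That gene was Hoxb3, with 0.96, 0.62, 0.52, 0.38, 0.50, 0.55, 0.88 and 0.56 CPM per kb in the order of subpopulations used above (log2 1.23 ± 0.44, edgeR adjusted p = 0.759). It was highest in 1 library each of Lgr5+Tspan8hi and Lgr5-Tspan8- cells, at levels under 1 CPM per kb throughout. Hoxa10, Hoxc4 and Hoxa13 came next, with log2 values from 0.44 to 0.71 and edgeR adjusted p from 0.926 to 0.947. The estimate was above 0 at 34 of 39 members (50.1% of all genes), with a median of 0.21, but without Lgr5-Tspan8- replicate 2 the median was -0.09 and 25 members were below 0. A test of any difference among the 4 subpopulations also called 0 (0.529% of all genes), with 15 members under the unadjusted p of 0.05 (11.1% of all genes). DESeq2 called Hoxc13 (1.74% of all genes) and limma-voom called 0. The lowest p-values were those of Hoxa3, Hoxc13, Hoxc5 and Hoxa10 (edgeR adjusted p from 0.165 to 0.253). Without Lgr5-Tspan8- replicate 1, 9 members passed (4.15% of all genes), and without Lgr5-Tspan8hi replicate 2, Hoxa3, Hoxa5, Hoxa13, Hoxc5 and Hoxd4 did (2.98% of all genes).

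Among the 6 pairs of subpopulations, 1 Hox gene passed in 1 pair. Hoxa3 had 7.16 and 8.49 CPM per kb in Lgr5+Tspan8hi libraries and 9.503 and 14.5 in Lgr5-Tspan8- libraries, 2 against 2 (log2 fold change -0.62 ± 0.16, edgeR adjusted p = 0.0464), where 1.3% of all genes passed. Hox genes were below 0 at 37 of 39 members in this pair (46.9% of all genes), with a median of -0.49, and 22 had an unadjusted p under 0.05 (13.3% of all genes). The call was lost without Lgr5-Tspan8- replicate 2 (-0.28, edgeR adjusted p = 1), where the Hox median was -0.20. It was also lost without either Lgr5+Tspan8hi or either Lgr5+Tspan8- library (edgeR adjusted p from 0.083 to 0.585). Of the other scalings, 3 ended the call, with edgeR adjusted p of 0.0659 by library totals, 0.0648 by loess against mean abundance and 0.699 by loess against reads per kb of gene. RLE size factors kept it (edgeR adjusted p = 0.0455), as did no filter (0.0231) and a mean of at least 5 CPM (0.0388). DESeq2 and limma-voom each called 8 members lower in this pair (2.55% and 2.45% of all genes), and edgeR called 18 without Lgr5-Tspan8- replicate 1 (5.14% of all genes). Hoxa3 spans other members of its cluster, so its count holds their reads as well. In the other pairs 0.00905% of all genes passed for Lgr5+Tspan8hi against Lgr5+Tspan8-, 0.131% for Lgr5+Tspan8- against Lgr5-Tspan8-, 0.0724% for Lgr5-Tspan8hi against Lgr5-Tspan8- and 0% for both others, and the lowest edgeR adjusted p of a Hox gene was 0.226.

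For H3K4me3 no Hox gene passed in any of these comparisons, and the fold changes lay on both sides of 0. With Tspan8, 0.0473% of all genes passed and 1 Hox gene had an unadjusted p under 0.05 (5.9% of all genes; DESeq2 and limma-voom called 0). The log2 fold change was below 0 at 25 of 39 members, against 50.4% of all genes, with a median of -0.05 (all genes, -0.0021). That median was -0.18 with limma-voom, 0.02 with loess scaling against mean abundance and from -0.25 to -0.07 with a library left out, the lowest without Lgr5-Tspan8hi replicate 2. It was below 0 at 13 of the 16 posterior members, with a median of -0.39, and at 4 of the 11 central members, with a median of 0.07. The gene under the unadjusted p was Hoxd13, which shapes digits and genitals, with 12.8, 7.51, 5.47 and 6.31 CPM in Tspan8hi and 11.7, 21.9, 14.6 and 13.3 in Tspan8- libraries (-0.96 ± 0.40, edgeR adjusted p = 0.747). The sides overlapped through Lgr5+Tspan8hi replicate 1. Hoxa2, which patterns the second branchial arch, had 11.6, 8.76, 0.46 and 4.73 CPM in Tspan8hi and 10.9, 4.11, 15.8 and 10.3 in Tspan8- libraries (-0.94 ± 0.50, edgeR adjusted p = 0.862). Its low value of 0.46 CPM is a single read in Lgr5-Tspan8hi replicate 1. Hoxc11 stood at -1.17 ± 0.64 and Hoxb2, the gene with most H3K4me3, at -0.20 ± 0.12 (edgeR adjusted p = 0.862 and 0.885).

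With Lgr5, 0.0421% of all genes passed for H3K4me3, and no Hox gene had an unadjusted p under 0.05 (4.98% of all genes; DESeq2 and limma-voom called 0). Below 0 were 18 of 39 members, against 49.2% of all genes, and the median was 0.03. Without Lgr5+Tspan8hi replicate 1 it was -0.11 and without Lgr5+Tspan8- replicate 1 it was -0.03, so its sign rests on single libraries. The lowest p-values belonged to Hoxd3 (-0.71 ± 0.37), Hoxb5 (-0.44 ± 0.26), Hoxc10 (1.05 ± 0.64) and Hoxc4 (0.40 ± 0.25), with edgeR adjusted p from 0.971 to 0.974. Hoxd3 had 11.6, 9.07, 6.56 and 14.4 CPM in the Lgr5+ libraries and 6.84, 26.01, 21.6 and 12.4 in the Lgr5- libraries, which overlapped. No member's sides were apart for either gene in H3K4me3, where 1.6% and 1.48% of all genes were lower and higher with Tspan8, and 1.26% and 1.58% with Lgr5.

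Interaction estimates of H3K4me3 were wide. No gene of any kind passed, and 4 Hox genes had an unadjusted p under 0.05 (4.2% of all genes; DESeq2 and limma-voom called 0), Hoxa2, Hoxa13, Hoxa9 and Hoxd9, with log2 values of 2.60 ± 1.00, 1.32 ± 0.59, 2.44 ± 1.17 and 1.28 ± 0.63 (edgeR adjusted p = 1 for each). Without Lgr5-Tspan8hi replicate 2, which leaves the sparse replicate 1 to stand for that subpopulation, Hoxa9 passed (0.0722% of all genes), and Hoxa2 and Hoxa9 passed in both pairs of Lgr5-Tspan8hi with Lgr5+Tspan8hi and Lgr5-Tspan8- cells, 4 calls in all (0.428% and 0.708% of all genes). Hoxa9 had 9.42, 8.13, 6.93, 2.06, 0, 6.70, 12.8 and 8.23 CPM in the order of subpopulations above, and the 0 is Lgr5-Tspan8hi replicate 1. Hoxd4 and Hoxd10 were also at 0 there, and Hoxa10 in Lgr5+Tspan8hi replicate 2. A count of 0 in these libraries allows up to 1.36 and 0.93 CPM (3 counts), by counting error only. Their effective depth was 17.2% and 34.0%, so fewer independent reads stand behind these limits, and the true ones are higher. Among the 4 subpopulations no Hox gene passed (0.0894% of all genes; 1 with an unadjusted p under 0.05, against 5.27% of all genes, and 0 by DESeq2 and limma-voom), and none passed in any of the 6 pairs. There 0.00526% of all genes passed for Lgr5+Tspan8hi against Lgr5+Tspan8- and likewise for Lgr5+Tspan8- against Lgr5-Tspan8hi, 0.105% for Lgr5+Tspan8hi against Lgr5-Tspan8-, 0.0105% for Lgr5+Tspan8- against Lgr5-Tspan8-, 0.0263% for Lgr5-Tspan8hi against Lgr5-Tspan8- and 0% for Lgr5+Tspan8hi against Lgr5-Tspan8hi.

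Other genes of the clusters were measured beside the Hox genes. Evx1 and Evx2, homeobox genes at the posterior ends of HoxA and HoxD, had 12.7 ± 3.69 and 7.75 ± 1.72 CPM per kb of H3K27me3 and 4.11 ± 1.69 and 6.21 ± 2.33 CPM of H3K4me3. Neither passed with Tspan8 or Lgr5. Evx1 had 8.76, 10.8, 8.49 and 12.6 CPM per kb in Tspan8hi and 14.4, 12.9, 13.6 and 20.1 in Tspan8- libraries (-0.57, edgeR adjusted p = 0.0786). Of 18 non-coding genes listed for the clusters 10 were counted and 9 tested for each mark, and none passed in either mark with Tspan8 or Lgr5. Hotair, an antisense RNA gene between Hoxc11 and Hoxc12, had 11.8 ± 2.64 CPM per kb of H3K27me3 and 1.51 ± 1.03 CPM of H3K4me3.

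Outside the clusters, 13 of 16 neighbouring genes were below 3 CPM per kb of H3K27me3 and 1 passed with Tspan8. Skap2, the adaptor gene next to the HoxA cluster, had 2.21, 2.56, 2.43 and 2.63 CPM per kb in Tspan8hi libraries and 3.65, 2.87, 3.77 and 4.22 in Tspan8- libraries (log2 fold change -0.55, edgeR adjusted p = 0.00402). All 4 Tspan8hi values lay below all 4 of Tspan8-, both libraries of Lgr5-Tspan8- included. The other neighbours rich in H3K27me3, Skap1 and Ttll6, stood at -0.34 and -0.50 (edgeR adjusted p = 0.0706 and 0.0562). No neighbour passed for H3K4me3 or with Lgr5. Partner genes of Hox proteins, Pbx2 to Pbx4, Meis1 to Meis3, Pknox1 and Pknox2, had from 25.9 CPM (Pbx4) to 146 CPM (Meis1) of H3K4me3 and from 0.42 to 2.99 CPM per kb of H3K27me3, the highest at Meis2. None of these genes passed in either mark with Tspan8 or Lgr5.

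Markers of other cell types were checked beside these results. Of 8 basal, 10 luminal, 8 fibroblast, 6 endothelial and 6 immune markers, 1 passed in any of the 4 comparisons with Tspan8 or Lgr5. Dcn, a fibroblast proteoglycan gene, was lower in H3K4me3 with Lgr5, with 12.8, 9.38, 27.3 and 15.8 CPM in Lgr5+ and 22.8, 41.8, 65.3 and 58.9 in Lgr5- libraries (log2 fold change -1.52, edgeR adjusted p = 0.000145). The summed H3K4me3 of the fibroblast list ran from 210 to 247 CPM in Lgr5+ and from 202 to 321 CPM in Lgr5- libraries. With Tspan8 it ran from 202 to 254 CPM in Tspan8hi and from 245 to 321 CPM in Tspan8- libraries. The summed H3K27me3 of the 6 immune markers ran from 380 to 401 CPM in Tspan8hi and from 403 to 427 CPM in Tspan8- libraries, without overlap. The sums of the Hox partner genes (1020 to 1084 and 1151 to 1246 CPM) did not overlap either. Nor did those of the neighbours outside the clusters (2218 to 2652 and 2896 to 3611 CPM) or of the non-coding cluster genes (247 to 305 and 311 to 469 CPM). How often sums of other genes part in this way was not counted, so this is not read as a trait of immune markers. The summed H3K27me3 of the basal, luminal, fibroblast and endothelial lists overlapped between the Tspan8hi and Tspan8- libraries, as did the sums of Evx1 with Evx2 and of the fixed Hox examples. The part of these markers in the Hox values was not tested.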

How the data were processed

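Per the labels' protocols, chromatin of sorted mouse mammary basal cells was sheared, and H3K4me3 or H3K27me3 was immunoprecipitated. The authors deposited raw read counts for 27080 Entrez genes in each of 16 libraries, made with featureCounts on mm10 per the submitters' processing notes; the region counted per gene is not given in the sources used here. Of the IDs, 25189 matched RefSeq symbols and 1891 did not. The 8 input samples were not analysed here, so no background was subtracted. H3K4me3 counts followed start regions (genes with starts close together had near equal counts) and H3K27me3 counts followed gene length, so levels are TMM-normalised CPM for H3K4me3 and CPM per kb of the curated RefSeq span for H3K27me3.

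Counts were tested with edgeR 4.0.16 (R 4.3.3; TMM, filterByExpr, robust quasi-likelihood F test on the 4 subpopulations, 4 residual degrees of freedom), with Benjamini-Hochberg adjustment over 19009 genes for H3K4me3 and 22099 for H3K27me3 and a threshold of 0.05. Tspan8 and Lgr5 were each tested as the mean of 2 subpopulations against the mean of the other 2. The biological coefficient of variation was 16% for H3K4me3 and 16.8% for H3K27me3. Fits were checked on simulated data. Replicates differed beyond sampling noise (chi-square per degree of freedom from 2.9 to 5.43). Alternatives were DESeq2 1.42.0, limma-voom 3.58.1, other scalings and filters, a replicate block and each library left out. Depth limits genes of few reads, and limits on a count of 0 cover counting error only.

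The members, gene lists and rules for naming genes were chosen with earlier results of these data known. Named were 10 fixed examples, the highest and lowest member of each cluster and mark, and in each comparison the members past the threshold or, where none passed, the 4 with the lowest p. Genes named outside this rule, among them Hoxb1 and those passing in single alternatives, were chosen after their values were seen. Some genes are not reported by name here, although sums and counts hold them.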

Additional observations from a re-analysis of the deposited data

Results flagged for a closer look

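Among 192 groups of 4 libraries tested for a single library far from the other 3, 12 were found (6.25%), where chance gives about 1 in 20. For H3K27me3, 5 of them were the library of Lgr5-Tspan8- replicate 2. It was the highest of the 4 Tspan8- libraries for Hoxa3 with 14.5 CPM per kb (others 9.21 to 9.95), for Hoxa5 with 18.0 (others 13 to 13.9), for Hoxa6 with 10 (others 5.18 to 5.93) and for the median deviation of the 39 Hox genes with 0.525 on the log2 scale (others -0.05 to 0.04). Among the 4 Lgr5- libraries it was the highest for Hoxa7 with 18.9 CPM per kb (others 13.9 to 14.6). The values of Hoxa3, Hoxa5 and Hoxa6 are not independent, since Hoxa3 spans the other two.

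The median Hox deviation in H3K27me3 was also far below the other Lgr5+ libraries in Lgr5+Tspan8hi replicate 1, at -0.313 (others -0.05 to -0.001). Hoxb3 reached 0.876 CPM per kb in Lgr5-Tspan8- replicate 1, the highest of the Lgr5- libraries (others 0.501 to 0.557). Hoxb9 reached 11.2 CPM per kb in Lgr5-Tspan8hi replicate 1, the highest of the Tspan8hi libraries (others 8.65 to 8.95).

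For H3K4me3, Hoxa5 had 20.4 CPM in Lgr5+Tspan8- replicate 1, the highest of the Tspan8- libraries (others 10.8 to 11.7), and 22.3 CPM in Lgr5-Tspan8hi replicate 1, the highest of the Lgr5- libraries (others 10.8 to 11.7). Hoxb13 had 3.65 CPM in Lgr5+Tspan8- replicate 1, the highest of the Lgr5+ libraries (others 1.88 to 2.14). Hoxd9 had 31.7 CPM in Lgr5+Tspan8hi replicate 1, the highest of the Tspan8hi libraries (others 13.2 to 15.6).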

How the results depend on the processing

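No result changed direction while past its threshold. The counts of Hox calls below stand without the share of all genes called in the same setting. They describe how the calls moved and are not read as a trait of Hox genes. For H3K27me3, calls with Tspan8 (0) were 2 with DESeq2, 8 with the replicate block and 0 to 13 with each library left out. Calls with Lgr5 (0) were 0 to 1 with a library left out. Calls among the 4 subpopulations (0) were 1 with DESeq2, 6 with the replicate block and 0 to 9 with a library left out. Over the 6 pairs (1 call) there were 8 with DESeq2, 8 with limma-voom, 0 with library totals, 0 with either loess scaling (against mean abundance or against reads per kb), 5 with no filter, 3 with a mean of at least 5 CPM, 14 with the replicate block and 0 to 31 with a library left out. The replicate numbers do not pair the libraries (correlations of their deviations from -0.01 to 0.117 for H3K27me3 and from -0.032 to 0.14 for H3K4me3), so the block is given here only, and for H3K4me3 it called 0 with Tspan8 and Lgr5.

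For H3K4me3, leaving out a library gave 0 to 1 call in the interaction and 0 to 4 over the pairs. The median Hox fold change with Tspan8 (-0.047) was -0.177 with limma-voom and -0.247 to -0.073 with a library left out, and with Lgr5 (0.033) it was -0.110 to 0.109. For H3K27me3 the medians ranged from -0.439 to -0.179 with Tspan8 and from -0.349 to -0.094 with Lgr5.

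The posterior minus anterior difference in H3K27me3 (0.417) was 0.667 without division by length, 0.519 per kb of gene plus 5 kb, 0.647 per kb of whole span, 0.634 without overlapping members and 0.294 without HoxB. HoxA minus HoxB (0.411) was 0.619, 0.556 and 1.147 under the first 3 of these. For H3K4me3, posterior minus anterior (-1.248) was -1.827 per kb and -0.892 without HoxB. The whole span and the removal of HoxB were chosen after seeing the data. Fewer samples are part of each left-out fit; the other causes were not tested. Few reads limit H3K4me3 at Hox genes: a lone library stands for its subpopulation when its partner is left out and is assumed to vary like the others.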
